A study of Mus musculus with 13 samples.

Results

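HNRNP and SR proteins are the main RNA-binding regulators of pre-mRNA splicing, and the transcripts that encode them were measured here in C2C12, a mouse cell line of myoblasts that fuse into myotubes once the serum is changed. The transcripts were taken as every protein-coding gene of the deposited table whose mouse symbol begins with Hnrnp, or is Srsf followed only by a number. This gave 32 genes of 55642 in the table, 20 of them Hnrnp and 12 Srsf. Of these, 30 had enough counts for a test and 2, Srsf12 and Srsf19, did not. Cells were transfected with nontargeting siRNAs (siNT, control KD) or with siRNAs to YBX3 (siYBX3, YBX3 KD), a cold-shock domain protein that binds RNA. They were sampled 48 h after transfection, either as proliferating myoblasts kept in fetal bovine serum (0 day) or as differentiating myoblasts, given horse serum for the last 24 h (1 day). The 13 libraries fell into 4 groups. At 0 day there were 4 of each siRNA, lettered A to D. At 1 day there were 2 of control KD, lettered C and D, and 3 of YBX3 KD, lettered B to D. All came from 1 line, and every library was of transfected cells.

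HNRNP proteins coat nascent transcripts as they leave RNA polymerase II. They bind short motifs in introns and exons, often keep splice sites from being used, and many of them shuttle to the cytoplasm and act on export, translation or decay. SR proteins carry RNA recognition motifs and a tail rich in arginine and serine. They bind exonic enhancers, recruit the U1 and U2 particles, and often act against HNRNP proteins on the same exon. SR protein activity is set largely by phosphorylation of the tail by the SRPK and CLK kinases. Many SR and HNRNP genes also hold a poison exon, whose inclusion sends their own transcript to nonsense-mediated decay. The counts here are sums per gene, so that productive and decayed isoforms were not told apart. In muscle, switches in splicing accompany the passage from myoblast to myotube.

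Total counts ranged from 33451547 to 71811371 per library, of which the 32 genes together held 0.714% (YBX3 KD at 1 day, replicate D) to 1.23% (control KD at 1 day, replicate C). Abundance is given as counts per 1000000 (CPM) after scaling of the libraries by TMM, and a gene was past the test at an adjusted p-value under 0.05 in edgeR's quasi-likelihood test over 16848 genes. Of 7 myoblast markers all were detected, with Vim at 3024 to 4730.2 CPM and Myod1 at 0.601 to 3.32 CPM. The summed level of 12 transcripts of early muscle differentiation was 41.4 to 123 CPM at 0 day and 39.2 to 112 CPM at 1 day. In this sum the libraries labelled differentiating overlapped with the proliferating ones. Most of it was Tnnt2 (median 69.9 CPM, 24.4 to 90.5 CPM over all libraries). Myog, Mymk, Myh3 and Ckm had medians of 0.250 to 1.36 CPM, and the sum does not show how they vary. Markers of other cell types were near 0: Adgre1, Epcam and Alb had no count in any library, and the 10 markers together stayed between 3.83 and 10.3 CPM. The labels do not say whether the replicates were separate cultures beyond calling them biological replicates, so p-values measure the spread between these libraries.

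Ybx3 was lower in every YBX3 KD library. At 0 day its level was 316, 311, 334 and 265 CPM under control KD and 46.6, 40.3, 42.9 and 37.9 CPM under YBX3 KD, in the order A to D. At 1 day it was 347 and 294 CPM under control KD (C, then D) and 47.0, 71.5 and 28.7 CPM under YBX3 KD (B, C, then D). Over both days YBX3 KD retained 14.5% of the control level (log2 fold change -2.81 ± 0.17, adjusted p = 4.3e-06 by edgeR).

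An siRNA can also act on transcripts that match the seed of its antisense strand (bases 2 to 8), so the mouse YBX3 siRNAs that the study lists were set against the 3′ untranslated regions of these genes. The antisense strands are shown 5′ to 3′ with the seed in capitals.
siRNA 05: uAUAGUUGuagggacgucg
siRNA 06: aUAGUAGCcgcgucuguac
siRNA 07: uCCAUAUCcauuucugacg
siRNA 08: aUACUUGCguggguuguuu
The sources do not say which of them were transfected for these libraries. The strands listed for siRNA 07 pair at only 7 of 19 positions, so that its seed is that of the strand as listed.

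A match to at least 1 seed was found in 5 of the 30 tested members, and these sites are shown in GRCm39, as the transcript reads 5′ to 3′, with the match in capitals.
Hnrnpul2, seed of siRNA 08 (chr19:8809039-8809045, plus strand): gggagggtgtGCAAGTAggggtgg
Hnrnpul2, seed of siRNA 05 (chr19:8809924-8809930, plus strand): ctgagaattgCAACTATtttatac
Hnrnpd, seed of siRNA 05 (chr5:100106854-100106860, minus strand): ccctcttcccCAACTATtctaatc
Srsf1, seed of siRNA 08 (chr11:87943797-87943803, plus strand): atctctttaaGCAAGTActttcat
Srsf10, seed of siRNA 07 (chr4:135591995-135592001, plus strand): tggtttctaaGATATGGaacatta
Hnrnpr, seed of siRNA 06 (chr4:136073983-136073989, plus strand): ctttaactgtGCTACTAataccaa
Hnrnpr, seed of siRNA 08 (chr4:136084850-136084856, plus strand): agttgagcctGCAAGTAttccacg
These heptamers, on the transcript strand, were found in 6.64% (CAACTAT, 05), 4.84% (GCTACTA, 06), 5.89% (GATATGG, 07) and 6.75% (GCAAGTA, 08) of 13095 tested genes with an annotated region. These shares are for single heptamers, and the share of genes with a match to any of the 4 was not counted. The count of members with a match to any seed therefore has no share beside it. The 5 members with a match had a median log2 fold change of -0.19 in YBX3 KD over both days and the 25 without one -0.17, with median region lengths of 4149 and 1095 bases. Over all searched genes the medians with and without a match were 0.014 and -0.0017 for siRNA 05, -0.023 and 0.0010 for siRNA 06, 0.0098 and -0.0012 for siRNA 07, and -0.054 and 0.0034 for siRNA 08. Hnrnpul1 and Srsf11 held none of the 4 heptamers. A match is a description of the sequence, and its part in the values was not tested.

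Replicate D stood apart from the other replicates for the HNRNP and SR transcripts. In control KD at 0 day, 28 of the 30 tested transcripts were lower in D than in the mean of A to C, with a median log2 ratio of -0.46 against -0.0018 over all tested genes. The counts were 27 of 30 in YBX3 KD at 0 day (median -0.13), 27 of 30 in control KD at 1 day (median -0.19, D against C) and 28 of 30 in YBX3 KD at 1 day (median -0.52, D against B and C). In all 4 groups D was the lower for 24 of 30 transcripts, a direction shared by 28.9% of all tested genes. Srsf5 and Hnrnph2 were higher in D in 3 groups and lower in D in control KD at 1 day (log2 ratio -0.024 and -0.072). Srsf5 was at 292 CPM in D of control KD at 0 day against 217 to 227 CPM in A to C, and Hnrnph2 at 170.1 against 143 to 159.7 CPM. Transcripts of proliferation were lower in D as well. The summed level of 12 such genes, among them Mki67 and Top2a, was 3169.5 to 3371 CPM in replicates A to C of control KD at 0 day and 1408 CPM in D. The corresponding sums were 2469 to 2777 and 1690.5 CPM in YBX3 KD at 0 day, 3533 (C) and 2639.9 CPM (D) in control KD at 1 day, and 2615 to 2760.4 (B and C) and 669.7 CPM (D) in YBX3 KD at 1 day. The summed level of the snRNP proteins and U2 factors was lower in D in all 4 groups, for example 3637 CPM against 4719.7 to 5049.6 CPM in control KD at 0 day. The 10 markers of other cell types had higher sums in D, at 7.38 against 4.46 to 4.68 CPM and 7.59 against 4.13 to 5.38 CPM in control KD and YBX3 KD at 0 day, and at 10.3 against 4.34 CPM and 7.86 against 3.83 to 4.38 CPM at 1 day. Nearly all of these sums came from Krt8, Cd68 and Cdh5, as no other marker of the list exceeded 0.154 CPM. Krt8 had the widest range over all libraries (1.23 to 6.92 CPM), beside 1.36 to 2.47 CPM for Cd68 and 0.728 to 1.39 CPM for Cdh5. The sums are thus no rise of the whole list. Early differentiation transcripts had the lowest sum of their group in D in 3 groups (41.4 CPM against 102 to 123 CPM in control KD at 0 day) and the higher one in control KD at 1 day (98.9 CPM against 87.3 CPM in C). This sum is mostly Tnnt2. In these bulk libraries fewer cycling cells and less RNA per cell cannot be told apart, and the part of these lists in the levels of the HNRNP and SR transcripts was not tested.

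Per length of transcript, these genes were among the most abundant of the cells. Levels between genes are compared here as CPM per kb of the canonical transcript in control KD at 0 day (mean ± SD, n = 4). Hnrnpa1, whose protein binds silencers and blocks splice sites, led at 664 ± 86.3. Hnrnpa2b1, a close relative with added roles in mRNA transport, followed at 298 ± 22.7, and Hnrnpab, another of that family, at 284 ± 82.9. The last pair overlapped within their spread. The most abundant SR transcripts were Srsf2 (136 ± 29.6) and Srsf5 (127 ± 19.2), which did not differ beyond their spread either. The lowest detected levels were 12.5 ± 0.721 for Hnrnph3 and 6.11 ± 0.565 for Hnrnpr, whose canonical transcript in this annotation has 21475 bases, so that its level per kb would be higher on a shorter transcript. By the mean over all 13 libraries, 25 of the 30 tested genes lay above the 90th percentile of all tested genes with a transcript length, and their median percentile was 94.6. Srsf12 and Srsf19 each had 1 count in 1 library and 0 in the other 12. A count of 0 allows up to 3 counts in a library, and this limit covers counting error only.

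**Figure D1:**
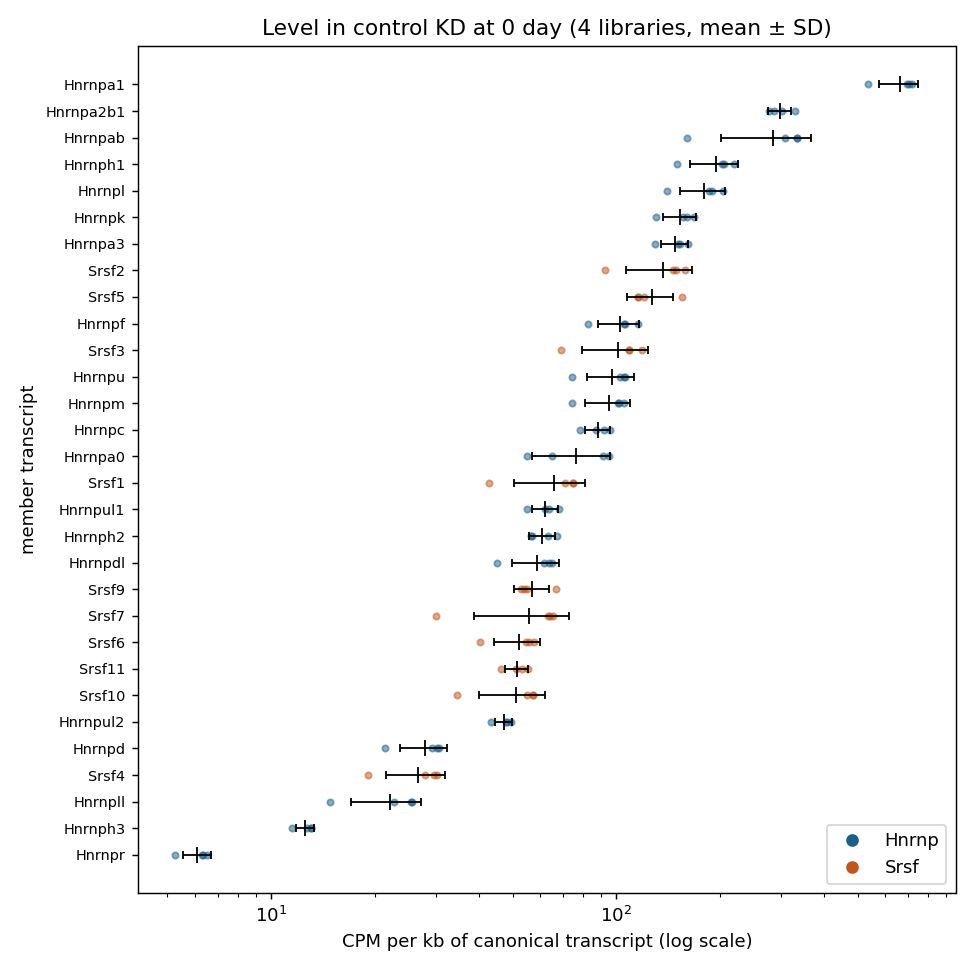
Level of 30 member transcripts in control KD at 0 day, as CPM per kb of canonical transcript on a log axis. Dots are the 4 libraries (blue Hnrnp, orange Srsf), ticks and bars the mean ± SD. Hnrnpa1 is highest at 664 ± 86.3 and Hnrnpr lowest at 6.11 ± 0.565, and the dot of replicate D lies below the other 3 for most genes.

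**Figure D2:**
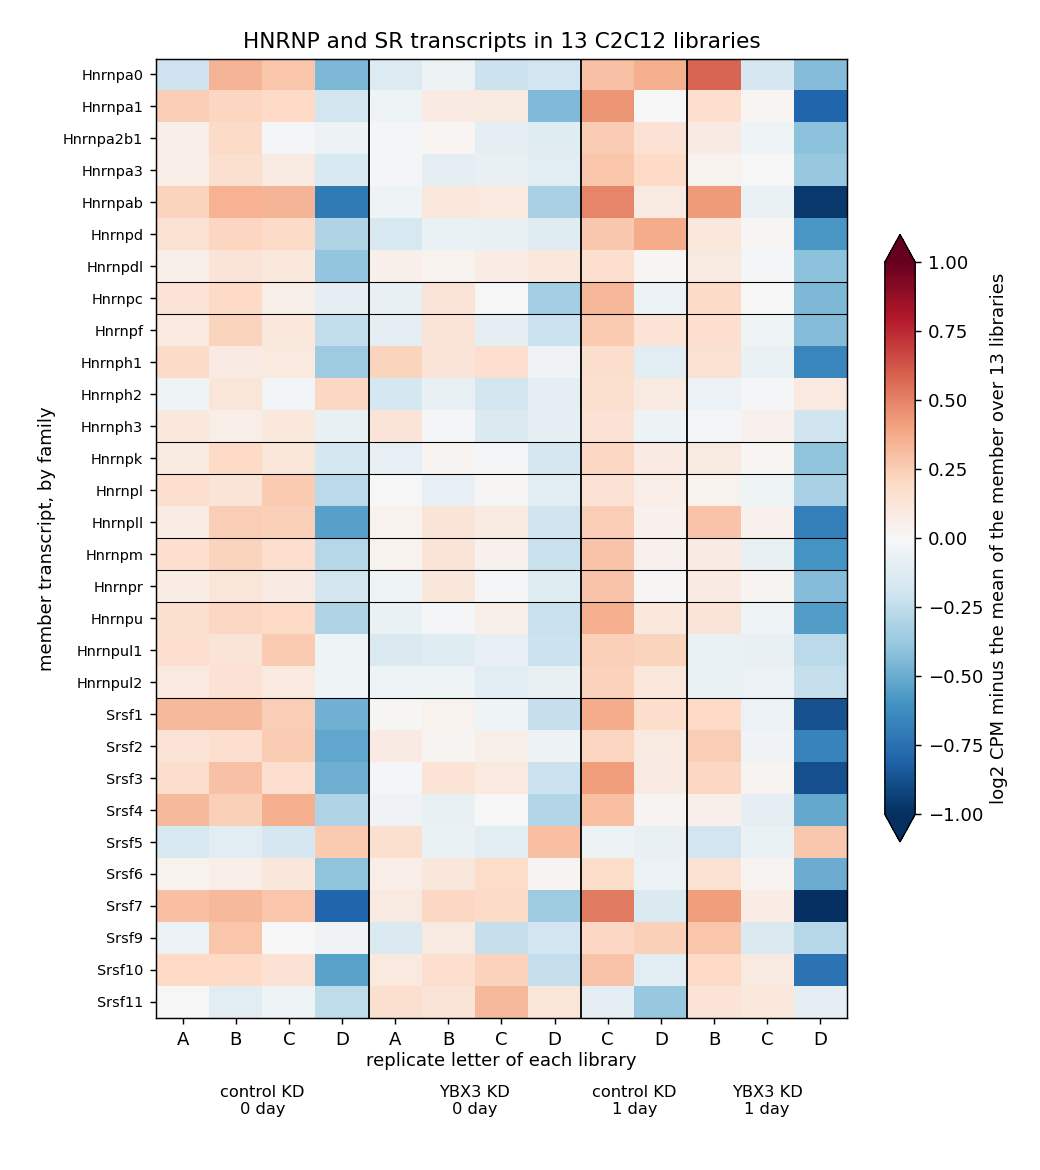
Log2 CPM of 30 member transcripts (rows, by family) in 13 libraries (columns, by group and replicate letter) minus the mean of each transcript over all libraries. Red is above and blue below that mean. The D columns are blue for most rows in control KD at 0 day and in YBX3 KD at 1 day, and Srsf5 and Hnrnph2 are red there.

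Libraries of YBX3 KD and control KD from both days were compared to ask which of these transcripts follow the level of YBX3. The estimates were small and mostly below 0. Of 30 tested transcripts, 27 (90%) had a log2 fold change below 0, against 49.6% of all tested genes, and their median was -0.17 against 0.0022. All 20 Hnrnp transcripts were below 0, from -0.31 to -0.0052. Of the Srsf transcripts 7 of 10 were below 0, from -0.30, and Srsf11, Srsf5 and Srsf6 were above it. Only Hnrnpul1 was past the test, as 1 of 30 (3.33%) beside 1.09% of all genes called lower and 2.59% called in either direction. Before adjustment, 7 of 30 (23.3%) were lower at p under 0.05, against 7.35% of all genes, and 1 of 30 (3.33%), Srsf11, was higher, against 9.25%. Most members moved together in replicate D, so they are not independent of each other. Their median percentile per kb was 94.6, so all tested genes are not matched to them in level. No member reached the thresholds of the study, an absolute fold change over 1.3 and an adjusted p under 0.001, which 19 genes passed in all in this edgeR fit. The study applied them with DESeq2 and independent hypothesis weighting, so this number is not the study's own. DESeq2 called 4 members (1179 genes in all), the 3 lower ones being Hnrnph2, Hnrnpul1 and Hnrnpul2 and the higher one Srsf11.

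The replicate letters were taken to pair the libraries. They disagree with the title numbers at 1 day, and a check of pairing could not decide whether they pair A to C. With the title number as a replicate block 1 of the 30, Hnrnpul1, was past the test (425 genes in all), and with the letter as the block 7 were. The 6 that were lower (20%, against 4.63% of all genes) were Hnrnpul1, Hnrnpul2, Hnrnpa1, Hnrnpc, Srsf4 and Srsf9, and the 1 that was higher (3.33%, against 5.97% of all genes) was Srsf11. In all 30 the sign of the estimate was the same with and without the block. The median standard error was 0.11 without the block and 0.074 with it. When all 4 libraries of replicate D were left out, 10 of 30 (33.3%, against 7.01% of all genes) were lower and Srsf11 was higher. The 10 were Hnrnpa1, Hnrnpa3, Hnrnpd, Hnrnph2, Hnrnpl, Hnrnpu, Hnrnpul1, Hnrnpul2, Srsf1 and Srsf4. Hnrnpc and Srsf9 were thus past the test only with the block, among these 3 fits. In the summed proliferation list 12 of 12 genes had a log2 fold change below 0 in the same comparison, with a median of -0.40, and none was past the test with or without the block (Plk1 -0.56 ± 0.31, adjusted p = 0.4). Their part in the change of the HNRNP and SR transcripts was not tested.

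**Figure D3:**
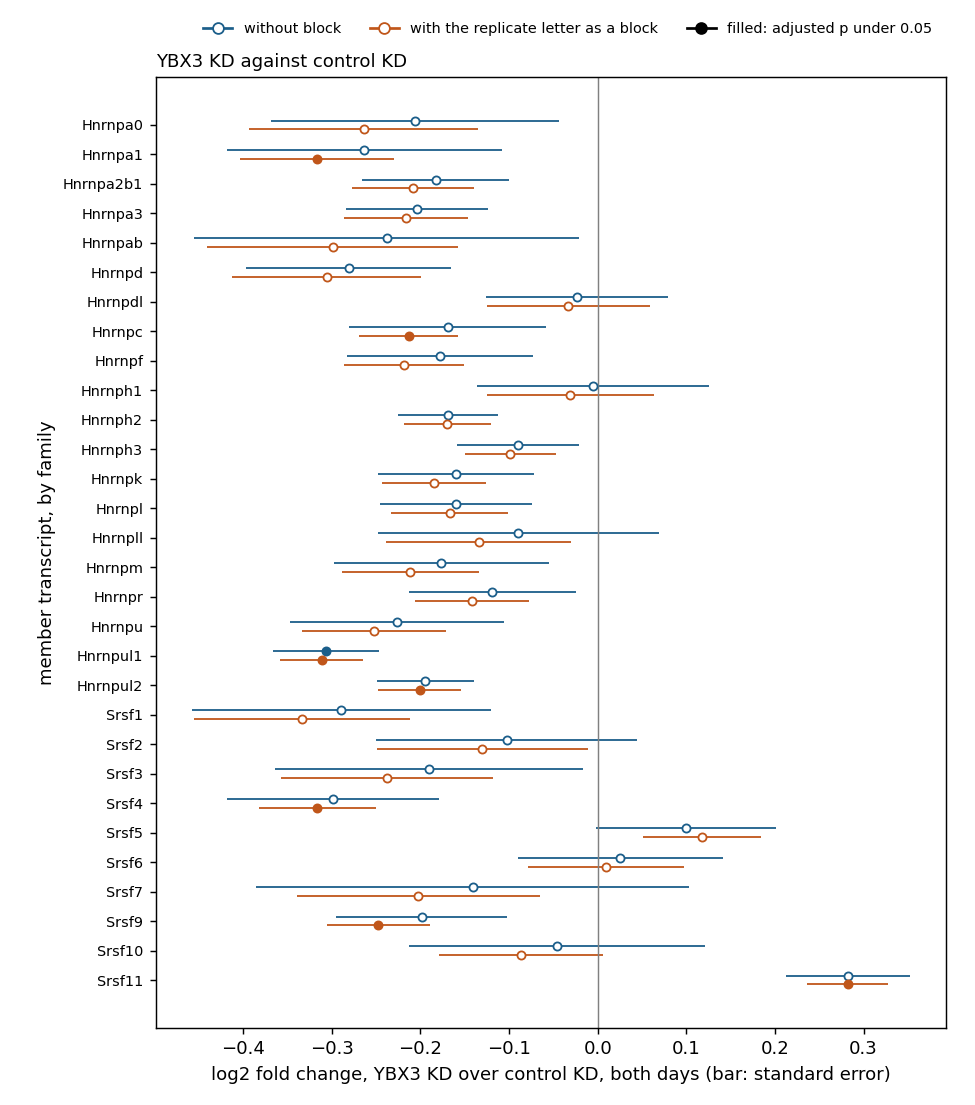
Log2 fold change of 30 member transcripts in YBX3 KD over control KD, both days (dot, with the standard error as bar), from edgeR without (blue) and with (orange) the replicate letter as a block. Filled dots are past an adjusted p of 0.05: Hnrnpul1 without the block, and Hnrnpul1, Hnrnpul2, Hnrnpa1, Hnrnpc, Srsf4, Srsf9 and Srsf11 with it.

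Of the 3 transcripts of the hnRNP U family, 1 passed the test. Hnrnpul1 (chromosome 7, 25420577 to 25454388, minus strand, GRCm39) encodes an hnRNP U-like protein that takes part in RNA processing and in the response to DNA damage. It was at 256, 249, 272 and 220.2 CPM in control KD and 206, 209, 215 and 196 CPM in YBX3 KD at 0 day (A to D), and at 269 and 265 CPM (C and D) and 217, 216 and 189 CPM (B to D) at 1 day. All 7 YBX3 KD libraries were thus below all 6 control KD libraries, which held for 1 of 30 members and for 1.08% of all tested genes. YBX3 KD retained 81.1% of the control level (log2 fold change -0.31 ± 0.06, adjusted p = 0.0179; -0.31 ± 0.047, adjusted p = 0.00515 with the block; adjusted p = 0.00246 without replicate D). The adjusted p rose above 0.05 when any 1 of 5 libraries was left out (0.052 to 0.055), namely control KD at 0 day A or C, control KD at 1 day C or D, and YBX3 KD at 0 day A.

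Hnrnpul2 (chromosome 19, 8796925 to 8811507, plus strand), a relative of Hnrnpul1 that acts with it in the repair of DNA ends, showed a smaller difference in the same direction. At 0 day it was at 267, 275, 268 and 242 CPM in control KD and 243, 242, 232 and 237 CPM in YBX3 KD, and at 1 day at 292 and 268 CPM and 238, 239.7 and 212 CPM. The groups overlapped at 0 day through replicate D of control KD alone and did not overlap at 1 day. Its 3′ untranslated region holds matches to the seeds of siRNAs 05 and 08. Its log2 fold change was -0.19 ± 0.054, adjusted p = 0.0837, and -0.20 ± 0.047, adjusted p = 0.0273 with the block. Without replicate D the adjusted p was 0.0105. Hnrnpu itself, a scaffold that ties RNA to chromatin, was at 784, 809.8, 805 and 569 CPM in control KD and 671, 694, 729 and 602 CPM in YBX3 KD at 0 day. At 1 day it was at 901 and 755 CPM and 766, 679 and 475 CPM. The groups overlapped on both days, and the difference was not past the test (-0.23 ± 0.12, adjusted p = 0.381; adjusted p = 0.0726 with the block and 0.0239 without replicate D).

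In the A/B and D type family, which holds the silencer-binding hnRNP A proteins and the AU-rich element binding hnRNP D proteins, 7 of 7 estimates were below 0 and none was past the test without the block. Hnrnpa1 was at 1298, 1271, 1257 and 965 CPM in control KD and 1063, 1158, 1168 and 808 CPM in YBX3 KD at 0 day. By 1 day it stood at 1487 and 1099.5 CPM and 1231, 1113 and 632 CPM. YBX3 KD was lower in 6 of 6 pairs of libraries with the same day and letter, while the groups overlapped with D and did not overlap without it. The log2 fold change was -0.26 ± 0.16, adjusted p = 0.434, and -0.32 ± 0.086, adjusted p = 0.0445 with the block. The table also lists processed pseudogenes of this gene (0 to 66 and 107 to 221 counts per library), which may take some of its reads.

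Hnrnpa2b1 was at 885, 965, 838 and 813 CPM in control KD and 832, 857, 788 and 774 CPM in YBX3 KD at 0 day, and at 1006 and 931 CPM and 893, 819.7 and 635 CPM at 1 day. It too was lower in 6 of 6 pairs, by 0.072 to 0.55 on the log2 scale, and did not pass the test (-0.18 ± 0.083, adjusted p = 0.29; adjusted p = 0.0792 with the block). Hnrnpa3, another A-type protein, was at 785, 839.5, 797 and 676 CPM and 738, 701, 712 and 696 CPM at 0 day, and at 906 and 859 CPM and 769, 748 and 577 CPM at 1 day. Its groups did not overlap at 1 day, and over both days its values were -0.20 ± 0.08, adjusted p = 0.214, with adjusted p = 0.0738 with the block and 0.0226 without replicate D. Hnrnpa0, an intronless gene whose protein binds AU-rich elements, was at 174, 254, 244 and 148 CPM in control KD and 183, 195, 173 and 176 CPM in YBX3 KD at 0 day. The values at 1 day were 246 and 257 CPM and 302, 179 and 149 CPM, so that the B library of YBX3 KD was the highest of all 13. Its replicates spread more than its groups (-0.21 ± 0.16, adjusted p = 0.568).

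Hnrnpab was at 639, 695, 693 and 334 CPM in control KD and 529.9, 589.6, 586 and 436 CPM in YBX3 KD at 0 day, and at 768 and 581 CPM and 734, 523 and 279.6 CPM at 1 day. In control KD at 0 day replicate D lay -1.01 on the log2 scale from the mean of A to C, and in YBX3 KD at 1 day -1.17 from B and C, against an effect of -0.24 ± 0.22 for YBX3 KD (adjusted p = 0.623). Hnrnpd, also known as AUF1, directs the decay of transcripts with AU-rich elements, and its own transcript holds a match to the seed of siRNA 05. It was at 226, 236, 233 and 165 CPM in control KD and 182, 195, 193 and 187 CPM in YBX3 KD at 0 day. At 1 day it was at 245 and 263 CPM and 219, 205 and 136 CPM, with no overlap. Over both days the difference was -0.28 ± 0.12, adjusted p = 0.24, with adjusted p = 0.091 with the block and 0.00681 without replicate D. Its neighbour and relative Hnrnpdl, 52287 bases away on chromosome 5, ranged from 156 to 231 CPM in control KD and from 155 to 221.5 CPM in YBX3 KD and did not pass the test (-0.023 ± 0.10, adjusted p = 0.933).

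Hnrnpc encodes the protein that binds uridine tracts and forms the core of the particle on new transcripts. At 0 day it was at 297, 309.6, 282 and 253 CPM in control KD and 257, 295, 269 and 214 CPM in YBX3 KD, and at 1 day at 341 and 259 CPM and 308, 269 and 198 CPM. YBX3 KD was the lower in 6 of 6 pairs although the groups overlapped, and the difference was past the test with the block (-0.21 ± 0.056, adjusted p = 0.0396) but not without it (-0.17 ± 0.11, adjusted p = 0.489) nor without replicate D (adjusted p = 0.145). Hnrnpk, whose protein binds cytidine-rich RNA and DNA, was at 784, 845, 803 and 653 CPM in control KD and 697, 753, 731 and 657 CPM in YBX3 KD at 0 day. By 1 day it stood at 849 and 781 CPM and 786, 748 and 559 CPM, and the difference was not past the test (-0.16 ± 0.088, adjusted p = 0.396; adjusted p = 0.07 with the block). Hnrnpm, which binds GU-rich RNA, was at 406, 422, 408 and 298 CPM in control KD and 371, 397, 373 and 311 CPM in YBX3 KD at 0 day. Its values at 1 day were 443 and 373 CPM and 384, 345 and 239.9 CPM, with an effect of -0.18 ± 0.12, adjusted p = 0.511. Hnrnpr, a relative of Syncrip, was at 135, 139.9, 136 and 113 CPM in control KD and 125, 139, 128 and 118 CPM in YBX3 KD at 0 day, and at 156 and 129.7 CPM and 136, 131 and 95.2 CPM at 1 day. It did not pass the test either (-0.12 ± 0.094, adjusted p = 0.569; adjusted p = 0.175 with the block).

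The F/H proteins bind runs of guanosine, and their transcripts behaved unequally. Hnrnph2, on the X chromosome, was at 143, 159.7, 144 and 170.1 CPM in control KD and 130.3, 139.8, 129.6 and 137 CPM in YBX3 KD at 0 day, with no overlap. The values at 1 day were 164 and 156 CPM and 141, 145 and 157 CPM, with overlap. Its log2 fold change was -0.17 ± 0.057, adjusted p = 0.142, with adjusted p = 0.0526 with the block and 0.0441 without replicate D. Hnrnph1, in contrast, was at 528, 489, 495 and 361 CPM and 538, 504, 519 and 452 CPM at 0 day, and at 521 and 426 CPM and 515, 441 and 293 CPM at 1 day. YBX3 KD was higher in 4 of 4 pairs at 0 day and lower in 2 of 2 pairs at 1 day, and the estimate over both days was -0.0052 ± 0.13, adjusted p = 0.989, a sign that several alternatives turned. Hnrnpf (-0.18 ± 0.11, adjusted p = 0.437) and Hnrnph3 (-0.09 ± 0.069, adjusted p = 0.555) were below 0 without passing the test, with ranges of 400.1 to 648 CPM and 24.5 to 31.2 CPM over all libraries. Hnrnpl, which binds CA repeats, ranged from 291 to 438 CPM and was past the test only without replicate D (adjusted p = 0.0308; -0.16 ± 0.086, adjusted p = 0.386 with all libraries), among the fit without block, the block and that subset. Its relative Hnrnpll ranged from 64.4 to 127 CPM (-0.089 ± 0.16, adjusted p = 0.816).

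Among the SR transcripts, Srsf11 had the largest estimate above 0. Srsf11 (chromosome 3, 157716110 to 157742310, minus strand) encodes an SR protein that contacts the U2AF factors at the start of spliceosome assembly. At 0 day it was at 174, 160.2, 168 and 145 CPM in control KD and 194, 189.8, 217 and 188 CPM in YBX3 KD, with no overlap. At 1 day it was at 163 and 133 CPM and 191, 186 and 162 CPM, where replicate D of YBX3 KD lay just below replicate C of control KD. YBX3 KD was the higher in 6 of 6 pairs, as in 9.35% of all tested genes, at 121% of the control level. The difference was 0.28 ± 0.07, adjusted p = 0.0532, and it was past the test with the block (0.28 ± 0.046, adjusted p = 0.00685) and without replicate D (adjusted p = 0.0173). Srsf5 and Srsf6, relatives of each other, were also above 0 without passing the test. Srsf5 was at 218, 227, 217 and 292 CPM in control KD and 273, 232, 226 and 299.8 CPM in YBX3 KD at 0 day, and at 235 and 231 CPM and 214, 233 and 294 CPM at 1 day (0.10 ± 0.10, adjusted p = 0.664). Its D libraries were the highest of their groups at 0 day and in YBX3 KD at 1 day. Srsf6 was at 259.6, 265, 274 and 192 CPM and 265, 273, 288 and 258 CPM at 0 day, and at 287 and 244 CPM and 281, 258 and 179 CPM at 1 day, with YBX3 KD higher in 4 of 4 pairs at 0 day and lower in 2 of 2 at 1 day (0.025 ± 0.12, adjusted p = 0.936).

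Srsf4 (chromosome 4, 131600816 to 131630471, plus strand), the relative of Srsf5 and Srsf6 with the longest arginine- and serine-rich tail, had an estimate below 0. It was at 69.5, 65.5, 70.9 and 44.9 CPM in control KD and 53.9, 52.7, 55.6 and 45.2 CPM in YBX3 KD at 0 day, and at 68.3 and 56.6 CPM and 57.4, 51.9 and 38.8 CPM at 1 day. Replicate D was the lowest of each group, and the pair of D libraries at 0 day was level (log2 ratio 0.011), while the other 5 pairs lay between -0.54 and -0.31. The difference was -0.30 ± 0.12, adjusted p = 0.224, and -0.32 ± 0.066, adjusted p = 0.0181 with the block. Without replicate D the adjusted p was 0.00298. Srsf9, a small SR protein close to Srsf1, was at 61.7, 78.1, 64.5 and 63.0 CPM in control KD and 58.4, 68.7, 54.8 and 56.3 CPM in YBX3 KD at 0 day. By 1 day it stood at 74.2 and 76.1 CPM and 77.9, 58.3 and 52.8 CPM, where the B library of YBX3 KD has no control KD partner. YBX3 KD was lower in 6 of 6 pairs, the groups overlapped, and the difference was past the test with the block (-0.25 ± 0.058, adjusted p = 0.0271) but not without it (-0.20 ± 0.10, adjusted p = 0.332).

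Srsf1, the founding member of the family and one of the transcripts with a match to the seed of siRNA 08, was at 407, 406, 385 and 233 CPM in control KD and 328, 334, 315 and 277 CPM in YBX3 KD at 0 day. The values at 1 day were 420.4 and 367 CPM and 373, 313 and 178 CPM. The pair of D libraries at 0 day ran the other way from the remaining 5, and the difference was past the test only without replicate D among these fits (-0.29 ± 0.17, adjusted p = 0.43 with all libraries; adjusted p = 0.103 with the block and 0.0107 without D). Srsf3, the smallest SR protein and an adapter for mRNA export, was at 316, 344, 316 and 199.7 CPM in control KD and 276, 309, 300.3 and 242 CPM in YBX3 KD at 0 day. Its values were 374 and 297 CPM and 323, 285 and 153 CPM at 1 day (-0.19 ± 0.17, adjusted p = 0.624). A processed pseudogene of Srsf3 is listed with 11 to 171 counts per library and may share reads with it. Srsf7, the other export adapter, was at 157, 159, 154 and 73.4 CPM in control KD and 136, 147, 145 and 99.3 CPM in YBX3 KD at 0 day, and at 182 and 115 CPM and 170.3, 134 and 58.7 CPM at 1 day. Of the 30 transcripts it had the largest standard error (-0.14 ± 0.24, adjusted p = 0.81), with D below the others by 0.52 to 1.37 on the log2 scale in the 4 groups.

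Srsf2, which stays in the nucleus and binds exonic enhancers, was at 363, 371, 394 and 231 CPM in control KD and 350.2, 336, 345 and 319 CPM in YBX3 KD at 0 day. At 1 day its levels were 384 and 351 CPM and 392, 323 and 208 CPM (-0.10 ± 0.15, adjusted p = 0.767). Srsf10, a repressor of splicing after heat shock that has a role in muscle, was at 175, 175, 169 and 105 CPM in control KD and 163, 172, 179 and 129 CPM in YBX3 KD at 0 day. At 1 day it was at 186 and 142 CPM and 175, 163 and 91.6 CPM, with groups that overlapped on both days (-0.046 ± 0.17, adjusted p = 0.918).

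**Figure D4:**
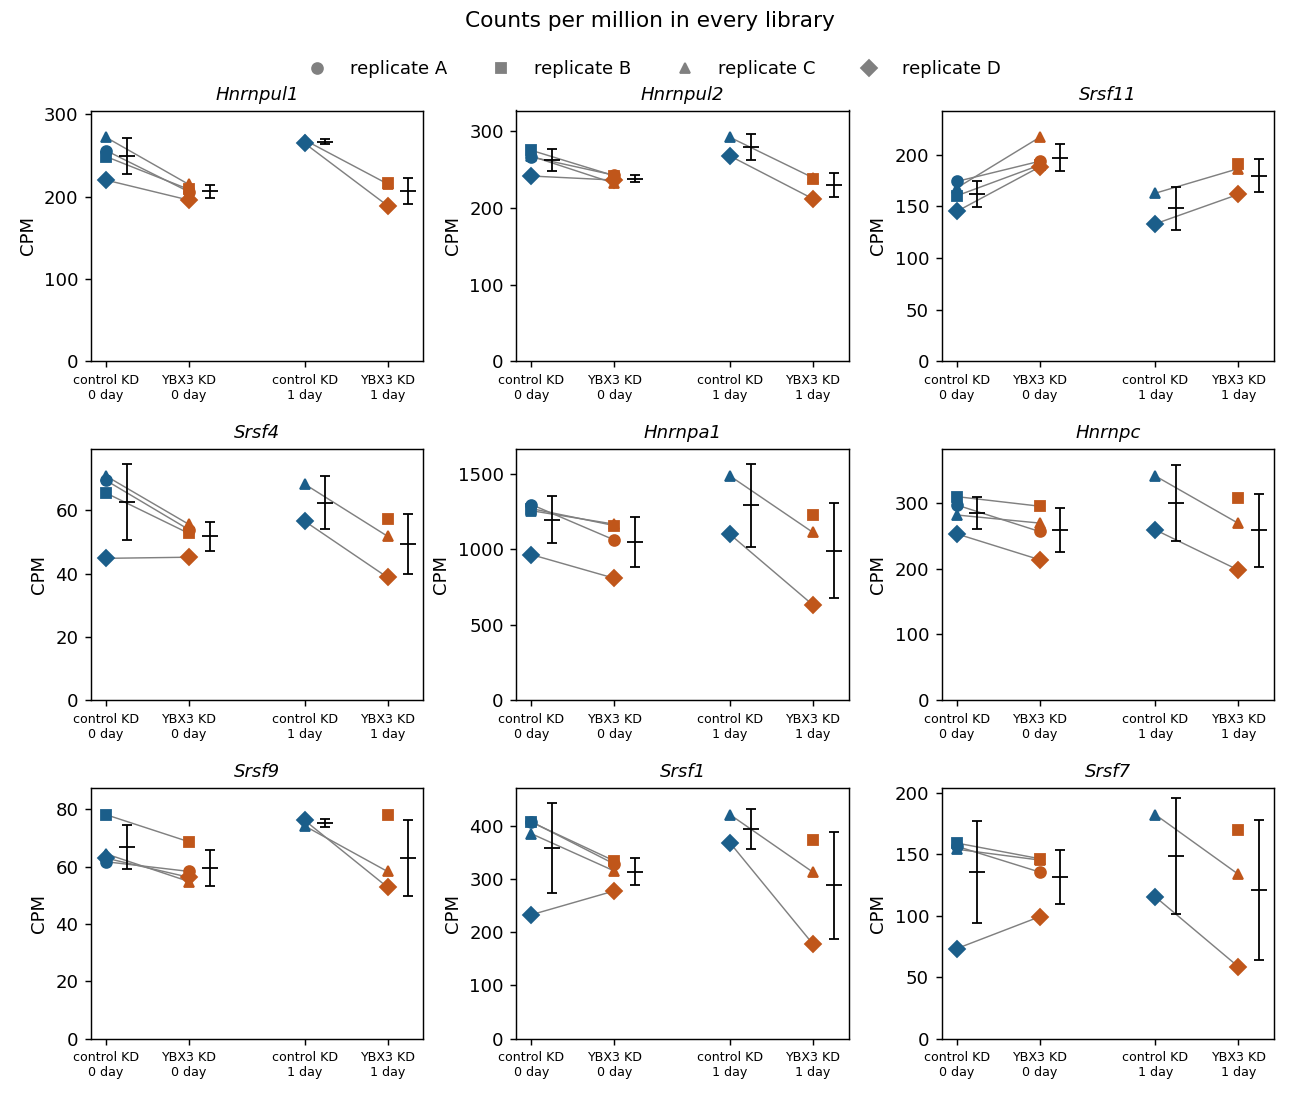
CPM of 9 member transcripts in every library, from 0 on each axis. Blue is control KD and orange YBX3 KD, symbols give the replicate letter, grey lines join libraries of the same day and letter, and black bars give the mean ± SD of the 4 groups. Hnrnpul1 separates all YBX3 KD from all control KD libraries, Srsf11 is higher in YBX3 KD along 6 of 6 lines, and D lies lowest for Srsf4, Hnrnpa1, Hnrnpc, Srsf1 and Srsf7 in each group.

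Set side by side, the pairs of libraries gave unequal medians. In pairs A, B and C at 0 day, 24, 26 and 25 of 30 transcripts were lower in YBX3 KD, with median log2 ratios of -0.13, -0.15 and -0.14. In the D pair at 0 day only 8 of 30 were lower, with a median of 0.072. At 1 day 29 of 30 were lower in pair C (median -0.28) and 27 of 30 in pair D (median -0.55). Over all tested genes the share lower in YBX3 KD was 46.3% to 52.0% in these pairs and the median -0.010 to 0.022. YBX3 KD was lower in all 6 pairs for 6 of 30 transcripts (20%, against 7.97% of all tested genes), namely Hnrnpa1, Hnrnpa2b1, Hnrnpc, Hnrnpul1, Hnrnpul2 and Srsf9. The log2 ratios of the summed proliferation transcripts were -0.45, -0.27, -0.27 and 0.26 in pairs A to D at 0 day, and -0.43 and -1.98 in pairs C and D at 1 day. As for the members, pair D was the highest at 0 day and the lowest at 1 day, while the remaining pairs came in another order. The part of proliferation was not tested.

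**Figure D5:**
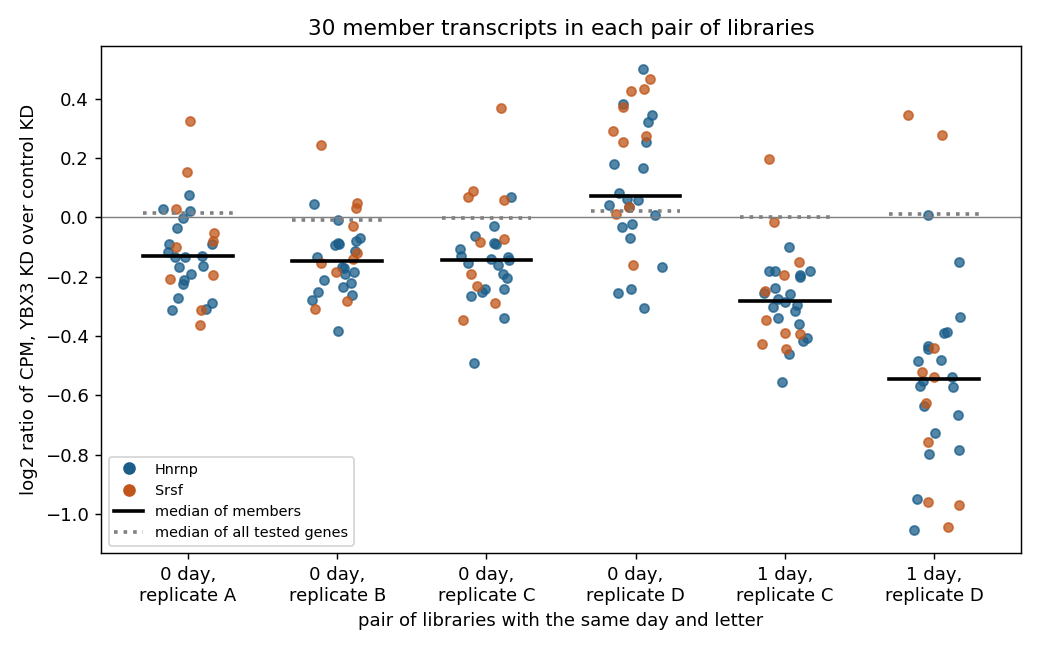
Log2 ratio of CPM, YBX3 KD over control KD, for 30 member transcripts (blue Hnrnp, orange Srsf) in each of 6 pairs of libraries with the same day and letter. The black line is the median of the members, from -0.55 in pair D at 1 day to 0.072 in pair D at 0 day, and the dotted line the median of all tested genes, which stays between -0.010 and 0.022.

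Within proliferating myoblasts alone, no member passed edgeR's test at 0 day, where 81 genes (0.481%) did, although 3 of 30 members (10%) had an unadjusted p under 0.05, as did 12% of all genes. These were Hnrnpul1 (-0.27 ± 0.077, adjusted p = 0.163), Hnrnph2 (-0.20 ± 0.074, adjusted p = 0.292) and Srsf11 (0.28 ± 0.092, adjusted p = 0.226). DESeq2 called 1, Hnrnpul1, among 506 genes. With the block Hnrnpul1 (adjusted p = 0.041) and Srsf11 (adjusted p = 0.0397) were past the test, with 481 genes in all. The 4 YBX3 KD libraries lay below the 4 control KD libraries for Hnrnph2 and Hnrnpul1, as for 4.27% of all genes. Of 30 members, 24 were below 0, with a median of -0.12 against -0.0042 over all tested genes. Without the D libraries 26 were below 0 (median -0.15), and Hnrnpd, Hnrnpul1 and Srsf4 passed the test as lower, among 1014 genes.

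In differentiating myoblasts the estimates had larger standard errors. At 1 day 28 of 30 members were below 0, with a median of -0.26 against 0.015 over all tested genes, and none passed edgeR's test, where 12 genes (0.0712%) did. At an unadjusted p under 0.05 there were 6 of 30 (20%), against 7.88% of all genes: Hnrnpul1 (-0.36 ± 0.10, adjusted p = 0.408), Hnrnpul2, Hnrnpa3, Hnrnpd and Hnrnpa2b1 lower, and Srsf11 higher (0.28 ± 0.12, adjusted p = 0.608). DESeq2 called none, among 152 genes, and with the block none was past edgeR's test, among 31 genes. Under the block 25 of 30 members (83.3%) had an unadjusted p under 0.05 in edgeR's test, against 27.4% of all genes. Of these 25, 24 were lower. DESeq2 with the letter as a block called 20, 19 of them lower, among 2347 genes. All 3 YBX3 KD libraries lay below both control KD libraries for 6 members (Hnrnpa2b1, Hnrnpa3, Hnrnpd, Hnrnpl, Hnrnpul1 and Hnrnpul2), as for 9.40% of all genes. Without the D libraries 29 of 30 members were below 0 (median -0.20), and none passed the test. Only 2 control KD libraries stand behind these values, and 1 when D is left out.

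The effect of YBX3 KD was not shown to differ between the days. In the test of the difference no member and no gene (0%) had an adjusted p under 0.05, and no member had an unadjusted p under 0.05, against 2.83% of all genes. DESeq2 called 2 genes and no member. With the letter as a block no adjusted p was under 0.05 either, but 14 of 30 members (46.7%) had an unadjusted p under 0.05, against 11.5% of all genes, and the estimates of all 14 were below 0. Hnrnpm (-0.39 ± 0.11, adjusted p = 0.416) and Srsf3 (-0.57 ± 0.19, adjusted p = 0.416) had the smallest p under the block. Without the block the estimate was below 0 for 29 of 30 members, with a median of -0.20, against 50.1% and -0.00057 for all tested genes. These values changed when replicate D was left out: 21 of 30 were then below 0, with a median of -0.057. Only replicate C of control KD remains at 1 day in that subset. With all libraries and no block, the smallest p belonged to Hnrnpa3 (-0.22 ± 0.16, adjusted p = 1).

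The step from 0 day to 1 day gave no change past the test. Adjusted for the siRNA, no member and no gene (0%) passed edgeR's test, no member had an unadjusted p under 0.05 (3.31% of all genes did), and DESeq2 called 2 genes and no member. The median log2 fold change of the members was 0.0034, with 17 above and 13 below 0. This balance rests on replicate D: without it 25 of 30 were above 0 (median 0.071), with no member but 174 genes past the test, and with the block 24 were above 0 (median 0.051), with no gene past it. The members with the smallest p above 0 were Hnrnph2 (0.10 ± 0.058), Hnrnpa0 (0.25 ± 0.17), Srsf9 (0.12 ± 0.10), Hnrnpa3 (0.068 ± 0.082) and Hnrnpd (0.10 ± 0.12). Those below 0 were Srsf11 (-0.13 ± 0.071), Hnrnph1 (-0.14 ± 0.13), Srsf5 (-0.049 ± 0.10), Srsf6 (-0.054 ± 0.12) and Hnrnpm (-0.055 ± 0.12). Every one of these had an adjusted p of 1.00. Within control KD 27 of 30 members were above 0 at 1 day (median 0.11), and within YBX3 KD 26 of 30 were below 0 (median -0.067), with none past the test in either. Without the D libraries the direction within YBX3 KD turned, with 22 of 30 above 0 (median 0.050) and none past the test, while within control KD 27 of 30 were above 0 (median 0.098). With the block 25 of 30 were below 0 within YBX3 KD, and within control KD 28 were above 0, of which 11 (36.7%) had an unadjusted p under 0.05, against 7.45% of all genes, and none passed the test. The 1 day groups lack replicate A, and that of control KD also lacks B, so that only C remains of it without the D libraries.

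Other parts of the splicing machinery were read from lists of genes. Of 27 snRNP proteins and U2 factors, which form the spliceosome itself, 26 had a log2 fold change below 0 in YBX3 KD over both days (median -0.17). Over all tested genes 49.6% were below 0. None of the 27 passed the test without the block. The smallest p-values were those of Snrpa of the U1 particle (-0.30 ± 0.091, adjusted p = 0.106) and Sf3b5 (-0.31 ± 0.14, adjusted p = 0.28). With the block 4 of 27 were lower, against 4.63% of all genes: Snrpa, Sf3b5, Snrpb2 and U2af1. Of 27 other splicing regulators, 21 were below 0 (median -0.13), with 2 past the test as lower and 1 as higher. Of all genes 1.09% were called lower and 2.59% in either direction. Khsrp, a KH-domain protein of splicing and mRNA decay, ranged from 246 to 301 CPM in control KD and from 208 to 231 CPM in YBX3 KD, with no overlap (-0.33 ± 0.056, adjusted p = 0.0098). Pcbp2, which binds cytidine-rich RNA, was at 672 to 812 CPM in control KD and 583 to 701 CPM in YBX3 KD (-0.25 ± 0.059, adjusted p = 0.0468). Rbm20, which governs titin splicing in striated muscle, was at 33.2 to 50.8 CPM in control KD and 51.6 to 61.2 CPM in YBX3 KD (0.42 ± 0.091, adjusted p = 0.0296). With the block 6 of 27 were lower, adding Raly, Pcbp1, Nono and Mbnl3, and Rbm20 was still higher. The shares of all genes with the block were 4.63% lower and 5.97% higher.

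The estimates for the kinases and importers that act on SR proteins were mostly above 0. Of 10 such genes 7 were above 0 (median 0.073) and none passed the test without the block. Among all tested genes 49.6% were below 0. Clk4 (0.19 ± 0.087, adjusted p = 0.299) and Clk2 (0.10 ± 0.053, adjusted p = 0.367) had the smallest p-values. With the block Clk1 (0.36 ± 0.061, adjusted p = 0.0085) and Clk4 (0.20 ± 0.056, adjusted p = 0.0491) were higher, as were 5.97% of all genes. In the step to 1 day Clk3 (-0.21 ± 0.080) and Clk4 (-0.19 ± 0.089) came first, with adjusted p of 1.00. Of 10 SR-related proteins 6 were below 0 (median -0.059) and none passed the test with or without the block, the first by p being Luc7l2 (0.093 ± 0.056, adjusted p = 0.443) and Luc7l (0.16 ± 0.097, adjusted p = 0.445). In the step to 1 day, no gene of these 4 lists passed the test. The first by p were Snrnp70 (-0.14 ± 0.066) and Snrnp200 (-0.075 ± 0.075) among the snRNP proteins. Acin1 (-0.15 ± 0.12) and Luc7l3 (-0.10 ± 0.087) led the SR-related proteins, and Mbnl1 (-0.14 ± 0.079) and Rbm24 (0.91 ± 0.59) the other regulators.

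Among the markers of the cells, those of myoblasts and of early differentiation did not pass the test in YBX3 KD over both days. Myod1, the master regulator of the lineage, was at 0.601 to 1.80 CPM in control KD and 1.15 to 3.32 CPM in YBX3 KD (1.09 ± 0.28, adjusted p = 0.0666, and 0.0109 with the block). Ncam1 was at 98.2 to 141 and 137 to 175 CPM (0.29 ± 0.083, adjusted p = 0.0881, and 0.0118 with the block). Of 10 tested differentiation transcripts 8 were above 0, led by the fusion gene Mymk (1.16 ± 0.46, adjusted p = 0.227) and Mylpf (0.80 ± 0.56, adjusted p = 0.515). Among all tested genes 49.6% were below 0. Of 3 tested markers of other cells, Krt8 (-0.35 ± 0.46, adjusted p = 0.746) and Cdh5 (0.12 ± 0.20, adjusted p = 0.8) came first. In the step to 1 day the first by p were Myf5 (-0.32 ± 0.18) and Ncam1 (-0.14 ± 0.086) of the myoblast markers, and Myog (1.16 ± 0.78) and Mymk (-0.66 ± 0.48) of the differentiation transcripts. For proliferation they were Plk1 (-0.18 ± 0.32) and Birc5 (-0.17 ± 0.32), and for other cells Krt8 (0.51 ± 0.46) and Cd68 (-0.12 ± 0.19). None of these passed the test.

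The genes of the families do not sit in 1 cluster, but 4 pairs of them lie within 500000 bases of each other. They are Hnrnpd and Hnrnpdl on chromosome 5 (52287 bases apart), Hnrnpll and Srsf7 on chromosome 17 (137486), Hnrnpa0 and Hnrnpk on chromosome 13 (260320) and Srsf10 and Hnrnpr on chromosome 4 (435698). Neighbours did not have equal estimates for YBX3 KD: those of Hnrnpd and Hnrnpdl were -0.28 and -0.023, and those of Hnrnpa0 and Hnrnpk -0.21 and -0.16. The difference between neighbours was not tested.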

How the data were processed

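RNAseq of 13 C2C12 libraries was analysed. Per the labels and the methods, libraries were made with a stranded mRNA kit and reads were mapped by the authors with Salmon to GRCm39 (Gencode M30). The deposited values are estimated counts per gene, as whole numbers without normalization; the step that made them whole is not given in the sources used here. Symbols, positions and lengths came from Gencode M39, joined by Ensembl identifier (54969 of 55642 found). The genes, lists and tests were chosen with earlier results of these data known. Genes were kept by filterByExpr on 4 groups (16848) and scaled by TMM (factors 0.969 to 1.02). Tests used edgeR 4.0.16 in R 4.3.3 (glmQLFit with legacy set to false, glmQLFTest) with Benjamini-Hochberg adjustment over all tested genes; errors of log2 fold changes are standard errors. YBX3 KD over both days and the step to 1 day came from a model of day and siRNA, the contrasts within a day and their difference from a model with a coefficient per group. Alternatives used DESeq2 1.42.0 and limma 3.58.1. CPM is counts divided by the scaled total, times 1000000; ratios of pairs used 0.5 CPM as pseudocount. Genes with values in every library were those past the test in YBX3 KD over both days, the 5 with the smallest p in each direction there and in the step to 1 day, a fixed set (Hnrnpa1, Hnrnpa2b1, Hnrnpc, Hnrnpk, Hnrnpu, Srsf1, Srsf2, Srsf3, Srsf5, Srsf7 and Srsf10) and the 3 highest and 3 lowest per kb; of other lists, the 2 with the smallest p in each comparison, with Pcbp2 and the genes past the test only with the block named after their values were seen.

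The replicate letters and the title numbers disagree at 1 day. As a check of pairing, the deviations of log2 CPM from the group means were correlated across groups. For libraries that share a letter, 16 of 16 pairs were above 0.1 (0.207 to 0.843). Of pairs of different letters 13 of 46 were (up to 0.537), and of the same title number 10 of 16. Same-letter pairs of D were at 0.508 to 0.843 and those of A to C at 0.207 to 0.488. Where D departs alike in every group, A to C share a deviation from the group mean. The check thus sets D apart but cannot decide whether the letters pair A to C. The letters were used as the replicate block, under which 1785 genes rather than 436 passed the test over both days. No 2 libraries of a group were duplicates (chi-square per degree of freedom 18.3 to 262). The scripts were tested on simulated counts, which held no deviation shared by a letter and no departure of replicate D. That test therefore cannot show how the fits behave under such deviations. The raw reads and independent hypothesis weighting were left out.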

Additional observations from a re-analysis of the deposited data

Results flagged for a closer look

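12 values stood far from the other 3 libraries of their group at 0 day by Dixon's test, of 60 sets of 4 libraries tested. For a single set chance gives about 1 in 20. The sets come from the same 8 libraries and are not independent, so the 12 cannot be set against that rate. Replicate D of control KD alone gave 11 of them. In replicate D of control KD, 10 transcripts were low: Hnrnpa1 (965 CPM), Hnrnpab (334), Hnrnpd (165), Hnrnpdl (156), Hnrnpm (298), Hnrnpr (113), Hnrnpu (569), Srsf1 (233), Srsf10 (105) and Srsf7 (73.4 CPM). In the same library Srsf5 was high (292 CPM). Replicate B of control KD was high for Srsf9 (78.1 CPM). No set of YBX3 KD at 0 day stood out in this way. Replicate D of control KD had the smallest total count of all libraries (33451547).

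For Hnrnph1 and Srsf6 YBX3 KD was higher than control KD in the pairs of libraries at 0 day (median log2 ratio 0.057 and 0.058, 4 of 4 pairs) and lower at 1 day (2 of 2 pairs). The interaction of siRNA and day was not past the test for either gene.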

How the results depend on the processing

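Over both days 1 member passed edgeR's test, among 436 genes in all. The genes called in all are given in brackets for the alternatives too. DESeq2 called 4 members (1179), the letter as a replicate block 7 (1785) and DESeq2 with that block 15 (2951). A minimum of 10 counts in every library gave 2 (420), and leaving out the 4 D libraries 11 (2278). No filter gave 0 (212), with Hnrnpul1 at adjusted p = 0.0617 by edgeR, and the thresholds of the study gave 0 (19). Leaving out 1 library at a time gave 0 to 3, the 3 without replicate D of control KD at 0 day (926). At 0 day 0 passed edgeR's test (81), with 3 at an unadjusted p under 0.05 (10%, against 12% of all genes). There DESeq2 called 1 (506), the block 2 (481), DESeq2 with the block 5 (1332), and leaving out D 3 (1014). At 1 day, where 0 passed (12), DESeq2 with the block called 20 (2347). The cause of these differences was not tested. Limma-voom, other scaling factors, the title number as block, only the libraries of the day compared, and the legacy fit, which was added after seeing the data, kept the counts. The interaction and the step to 1 day stayed at 0 throughout. Of 805 estimates of named members under the alternatives, 747 kept their sign and side of the threshold, 35 came past it, 6, all of Hnrnpul1, lost it, and 17 turned sign, all far from the threshold. Those over both days were Hnrnph1 (0.0018 with at least 10 counts, 0.028 with the title number as replicate block, and -0.079 to 0.075 on leaving out single libraries), Srsf10 (-0.14 to 0.045 on leaving out single libraries) and Srsf6 (-0.047 to 0.096 likewise). Those in the step to 1 day were Hnrnpd (-0.0049) and Srsf5 (0.054) with the title number as replicate block, Hnrnpm (-0.13 to 0.046) and Srsf6 (-0.13 to 0.047) on leaving out single libraries, and Srsf6 without the D libraries (0.021). The members' standard errors over both days were 0.054 to 0.24 on the log2 scale, at mean levels of 28.3 to 1119 CPM. Differences within them were not detectable with these libraries. Some differences well beyond them did not pass edgeR's test either, such as 0.28 ± 0.07 for Srsf11 (adjusted p = 0.0532).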
